A study of Mus musculus with 2 samples.

Results

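The ISG15 conjugation system was described by 5 genes, matched by symbol among the 55536 mouse genes of the tables: the modifier Isg15, its activating enzyme Uba7, its conjugating enzyme Ube2l6, its main ligase in mice, Herc6, and its protease Usp18. Their transcripts were measured in macrophages grown from the bone marrow of C57BL/6J mice, whose polyadenylated RNA was sequenced after 120 minutes with 100 ng/ml of the stimulus. The labels disagree on that stimulus: the free text names lipid A, the part of bacterial lipopolysaccharide that the receptor Tlr4 senses, and the treatment and source fields name lipoprotein A, recorded as a protein. There was 1 group of 2 libraries, biological replicates 1 and 2, with the same donor record for both, no stated age or sex and no stated separate animals, so the spread between them may be technical. No unstimulated library was analysed here, and no change with the stimulus can be read from these values.

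ISG15 is a small protein made of a pair of ubiquitin-like folds, and interferons and microbial stimuli induce its gene. It is attached to lysines of other proteins by a chain of enzymes like that for ubiquitin: an E1 activates it, an E2 carries it, and an E3 passes it on to targets, many of them newly made proteins. Usp18 removes it again and, apart from this, binds the interferon receptor subunit Ifnar2 and dampens signalling; macrophages also release free ISG15, which acts outside the cell.

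The end of the protein that matters for conjugation is encoded in the second exon of Isg15, a gene of 2 exons on the reverse strand at chr4:156199424-156200818 (mm10). The last 18 bases of the window shown, in capitals, hold the 6 codons of the motif that ends in the glycine pair through which ISG15 is joined to its targets, and 6 further codons follow it in the gene and are removed from the precursor. The window lies at chr4:156199605-156199652 on the reverse strand. The same window of the closest copy among annotated transcripts, chr17:46407023-46407070 on the reverse strand, is shown because reads from it could be counted for Isg15.
Isg15: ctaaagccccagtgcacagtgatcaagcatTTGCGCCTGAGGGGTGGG
AC151275.1: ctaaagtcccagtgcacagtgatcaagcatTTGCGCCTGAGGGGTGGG
Of the 48 bases of the window 1 differs, outside the capitals. AC151275.1 is annotated as a processed pseudogene at chr17:46407004-46407484 and is 95.2% identical to Isg15 over 482 aligned columns, with 22 mismatches and 1 gap. It had 0 counts in both libraries, so no read was assigned to the copy, although 3.96% of the 50-base stretches of the Isg15 transcript also occur in it.

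Promoters were searched for the letters GAAANNGAAA, the core that interferon-stimulated response elements share, on both strands and over 250 bases before and 50 after each RefSeq start (GRCm38.p6, the assembly that mm10 names). They are shown for Isg15 and Uba7, the members in which this or a shorter form was found. In the Isg15 stretch, chr4:156200856-156200915 on the reverse strand, the capitals mark 3 matches that overlap one another and begin at 78, 72 and 66 bases before the start. In the Uba7 stretch, chr9:107975529-107975558 on the forward strand and partly within the first exon of its coding transcript, the capitals mark 1 match to the shorter letters AANNGAAA, read on the opposite strand.
Isg15 promoter: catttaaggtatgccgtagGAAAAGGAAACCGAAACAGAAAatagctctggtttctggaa
Uba7 promoter: actcagtctagTTTCACTTttggtttcctg
The 10 letters occurred in 3.44% of 32851 promoters, in 1 of the 4 members with a promoter sequence (Isg15) and in 12 of 23 other interferon-stimulated genes. Percentages of promoters count each window, whereas a gene was counted if any of its windows matched, so the units differ here and below. A form with 1 more repeat, 16 letters long, occurred in 0.116% of promoters, in Isg15 and in 2 of those 23 genes. The shorter letters, which the longer ones contain, occurred in 23.9% of promoters, in 2 of 4 members (Isg15 and Uba7) and in 18 of the 23 genes. A match describes letters in this window and is not a measured binding site.

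All 5 genes were expressed, and the modifier stood far above its enzymes. Levels are given in TPM, which divides by transcript length and library size, so that genes can be set side by side. Of 22028 protein-coding genes 43.6% reached 1 TPM in both libraries and 4.99% reached 100 TPM; the members did so in 5 of 5 and 2 of 5 cases (Isg15 and Ube2l6). The gene tables held 33319563 and 50334059 counts in replicates 1 and 2, where the floor of 3 counts, which bounds what a gene with 0 counts could have, equals 0.0900 and 0.0596 CPM (counts scaled to library size) and covers counting error only. With 1936 to 16389 counts, every member lay far above that floor. In bulk RNA such as this, fewer cells of a type and less RNA per cell cannot be told apart.

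Isg15 had 739.7 TPM in replicate 1 and 1046 TPM in replicate 2, or 893 ± 216 TPM (SD, n = 2), from 7893 and 16389 counts. It was the 169th and the 116th most abundant of the 9596 coding genes at 1 TPM or more. Only 1 Isg15 transcript is annotated, of 756 bases, so its level does not depend on how reads were divided among isoforms.

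Uba7, the E1 that activates ISG15, was the lowest member, at 40.5 and 43.8 TPM (42.2 ± 2.29 TPM, SD, n = 2). It was the most alike between libraries in TPM of the whole gene only, as its coding transcript alone had 13.7 and 21.5 TPM. Its gene lies at chr9:107975505-107984060, and its coding transcript has 24 exons. Ube2l6, the E2 that receives ISG15 from Uba7, stood at 118 and 147 TPM (133 ± 20.5 TPM), second among the members. Ube2l6 lies at chr2:84798828-84810335, with 4 exons in its leading transcript.

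Herc6, the HECT-type ligase, had 59.2 and 87.0 TPM (73.1 ± 19.6 TPM, SD, n = 2). It lies at chr6:57581000-57664632, and its coding transcript spans 23 exons. Usp18, the protease at chr6:121245906-121270917, had 94.3 and 114 TPM (104 ± 14.0 TPM), more than the ligase in each library.

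The order Isg15, Ube2l6, Usp18, Herc6, Uba7 was the same in both libraries and in both of the quantifications that the authors deposited. No neighbouring members overlapped: the lowest Isg15 value, 739.7 TPM, lay above the highest Ube2l6 value, 147 TPM, by more than either SD. The gaps further down were narrow. The lower Ube2l6 value of 118 TPM and the higher Usp18 value of 114 TPM, and the lower Usp18 value of 94.3 TPM and the higher Herc6 value of 87.0 TPM, were closer than the SD of either gene. These neighbours therefore kept their order within each library but did not differ clearly beyond their spread. The lower Herc6 value of 59.2 TPM and the higher Uba7 value of 43.8 TPM were closer than the SD of Herc6 (19.6 TPM), though not than that of Uba7 (2.29 TPM). The order is also that of whole genes, and for Uba7 and Herc6 a large part of the level came from transcripts that are not annotated as coding, described further on.

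**Figure D1:**
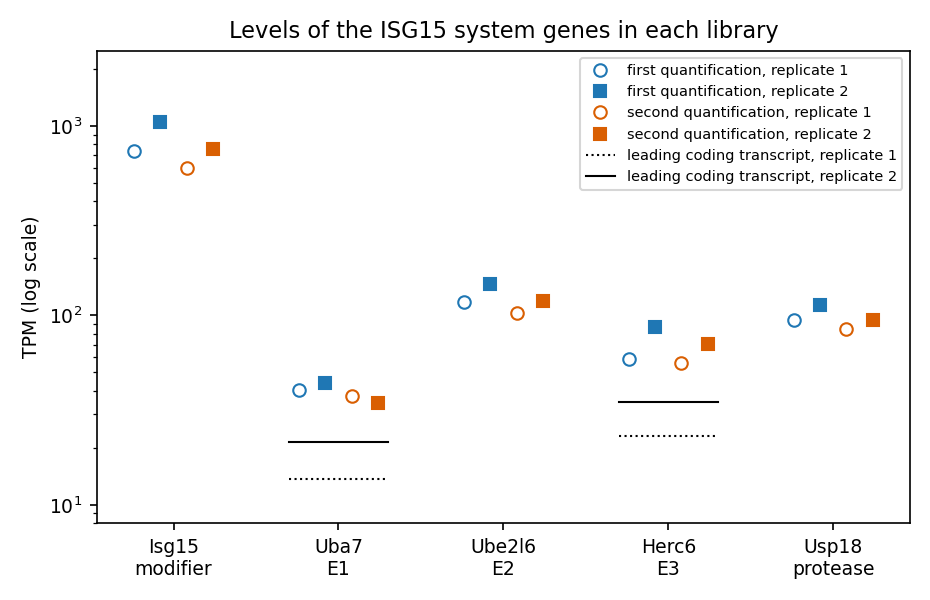
TPM (log axis) of the 5 genes in each library, as circles for replicate 1 and squares for replicate 2, in the first (blue) and second (orange) quantification; black lines give the leading coding transcript of Uba7 and Herc6 in the first. Isg15 sits between 604 and 1046 TPM and every other member at or below 147 TPM, while the coding transcripts of Uba7 and Herc6 lie between 13.7 and 35.0 TPM.

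Transcripts of the modifier outnumbered those of each enzyme. For each Ube2l6 transcript there were 6.24 and 7.09 of Isg15 in replicates 1 and 2, and for each of Usp18 there were 7.84 and 9.17. For each Herc6 transcript there were 12.5 and 12.02, and for each of Uba7 there were 18.3 and 23.9. Counting the leading coding transcript alone, the numbers were 32.0 and 29.9 Isg15 transcripts for each of Herc6 and 53.8 and 48.6 for each of Uba7. The excess of modifier is by construction larger over the coding transcripts of Uba7 and Herc6 than over their genes, since a transcript is part of its gene. How much larger depends on the coding share of TPM, described further on. The excess is one of RNA, not of protein.

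Set among genes of the same role, Isg15 was among the most abundant of 14 modifiers by mean level. Fau, whose product carries a ubiquitin-like part, stood at 793 and 932 TPM, and the polyubiquitin gene Ubb at 786 and 803 TPM. Isg15 was below both in replicate 1 and above both in replicate 2, so these 3 genes were not ordered beyond their spread. Ubd, which encodes FAT10, another interferon-inducible modifier made of a pair of ubiquitin-like folds, had 5 and 3 counts, at or near the floor.

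By mean level Uba7 was the third of 10 genes for E1 enzymes or their subunits, behind Uba1, the main ubiquitin E1 (125 and 109 TPM), and Atg7, the E1 of autophagy (52.0 and 40.5 TPM). Atg7 and Uba7 overlapped, and Sae1, a subunit of another E1, overlapped Uba7 too and stood above it in replicate 1 (42.2 and 33.3 TPM). These ranks are of whole genes: the coding transcript of Uba7 alone, at 13.7 and 21.5 TPM, lay below the Sae1 gene in each library. Ube2l6 was the fifth of 11 E2 genes by mean level, the highest being the ubiquitin E2 Ube2d3 (381 and 384 TPM). Its closest paralog, the ubiquitin E2 Ube2l3, stood at 175 and 155 TPM, above Ube2l6 in each library.

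Herc6 was far above the other HERC genes in both libraries. Herc4 stood at 15.3 and 16.1 TPM, Herc1 at 12.2 and 15.2 TPM, Herc2 at 12.1 and 10.5 TPM and Herc3 at 1.89 and 2.02 TPM, each below even the coding transcript of Herc6. Of other ligases described for ISG15, Trim25, which also ubiquitinates the RNA sensor encoded by Ddx58, was more abundant than Herc6 at 97.2 and 117 TPM, and Arih1 stood at 33.1 and 30.8 TPM. Usp18 was the most abundant of 7 genes for proteases reported to act on ISG15. Usp5, which takes apart free ubiquitin chains, stood at 67.3 and 50.5 TPM, the proteasome-bound Usp14 at 48.8 and 41.0 TPM, Usp16 at 35.2 and 28.9 TPM and Usp21 at 8.86 and 9.83 TPM. Usp2 had 4 and 13 counts and Usp13 had 0 in both libraries.

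**Figure D2:**
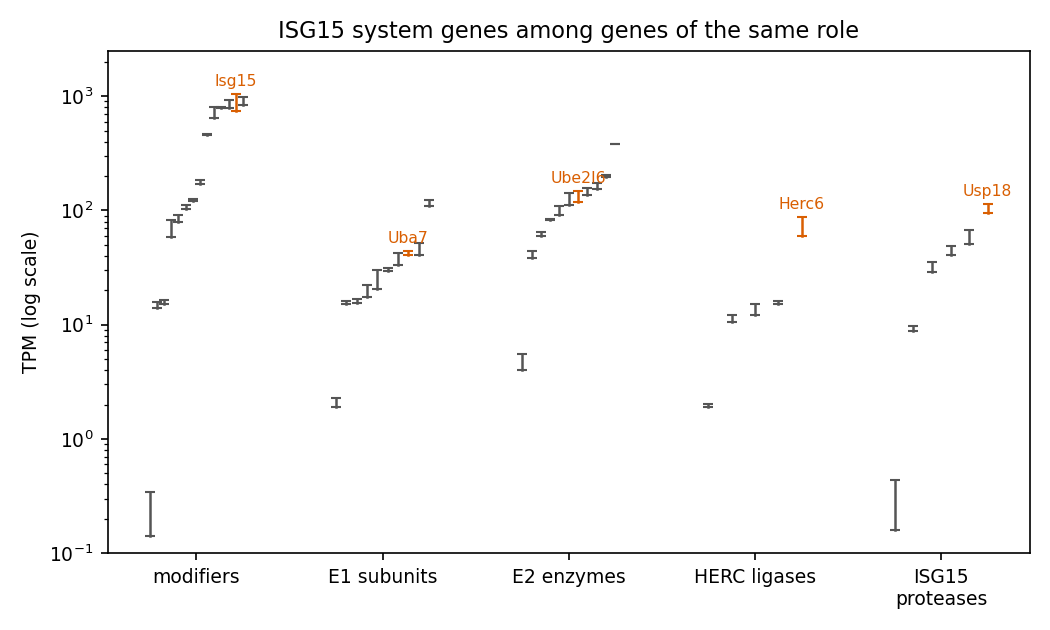
TPM (log axis) of the ISG15 genes (orange) and of other genes of the same role (grey), ordered by mean level within each role; ticks mark the libraries and the line joins them. Isg15 shares the top of the modifiers with Fau and Ubb, Herc6 at 59.2 and 87.0 TPM stands above the other HERC ligases, and Usp13, at 0, is not drawn.

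Outside the cell, free ISG15 acts through the integrin LFA-1. Its beta chain gene Itgb2 stood at 362 and 309 TPM and its alpha chain gene Itgal at 9.09 and 12.4 TPM. The 16 genes listed for proteins reported to carry ISG15 were all at 1 TPM or more, led by the antiviral genes Ifit1 (797 and 1206 TPM) and Mx1 (402 and 422 TPM). Of the 10 genes listed for the interferon pathway, Irf7, a factor that drives interferon genes, stood at 179 and 253 TPM, and Ifnar2, the receptor chain that Usp18 binds, at 187 and 160.4 TPM. Ifnb1, which encodes interferon beta, had 101 and 69.7 TPM.

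The most similar levels to each member, by the distance of log2(TPM + 1) over the 2 libraries among protein-coding genes, were those of Ccrl2 for Isg15 (740.3 and 1028 TPM), Dpp7 for Ube2l6 (120.2 and 149 TPM), Max for Usp18 (94.9 and 115 TPM), Exoc3l4 for Herc6 (59.4 and 85.7 TPM) and Polr2a for Uba7 (40.4 and 44.0 TPM). With 2 libraries such likeness is one of level only.

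The members divided into 2 kinds by transcript use. Isg15, Ube2l6 and Usp18 came almost wholly from transcripts annotated as coding, with 100%, 97.8% and 96.1% of their TPM in replicate 1 and 100%, 99.4% and 96.4% in replicate 2. For Uba7 the coding share of TPM was 33.9% and 49.1% (41.5 ± 10.8%, SD, n = 2), and for Herc6 it was 39.1% and 40.3% (39.7 ± 0.850%). The remainder lay mostly in transcripts that keep an intron.

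Among 3638 coding genes with more than 1 transcript and 20 TPM or more in both libraries, the median coding share was 97.9%, and 3.49% of genes had a lower share than Uba7 and 3.13% a lower share than Herc6. In the second quantification, over 3285 genes, these percentages were 3.77% and 3.56%. Retained-intron transcripts held 45.0% and 35.6% of Uba7 TPM and 52.8% and 37.9% of Herc6 TPM, beside a median of 0.462% over those genes. Both members thus lay at the low end for coding share, and Ube2l6 and Usp18 lay near the middle, with 56.2% and 40.5% of genes below them.

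How far Herc6 stood apart depended on the unit. By counts rather than TPM its coding share was 70.0% and 77.9%, and that of Uba7 46.6% and 60.6%. Over the 3638 genes the median by counts was 99.2%, and 5.80% of genes had a lower share than Herc6 and 2.67% a lower share than Uba7. Transcripts under 1200 bases, a length chosen after the values were seen, held 48.9% and 53.5% of Herc6 TPM but 10.3% and 11.0% of its counts. Herc6-203, of 449 bases and annotated to undergo nonsense-mediated decay, shows this: its 19.1 and 111 counts made up 8.11% and 21.8% of Herc6 TPM.

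The longer transcripts carried most of the reads. The coding Herc6-201 (4767 bases) had 2340 and 5218 counts, and the single-exon Herc6-202 (4378 bases), annotated as a retained intron, had 659 and 743. For Uba7, the coding Uba7-201 (3195 bases) had 903 and 2081 counts. Uba7-214, a 23-exon form annotated to undergo nonsense-mediated decay, had 422 and 631 counts. Only 2.74% and 2.04% of Uba7 counts lay in its transcripts under 1200 bases. Of the 15 annotated Uba7 transcripts 10 are retained-intron forms and 1 is coding, so its reads were divided among many overlapping forms.

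**Figure D3:**
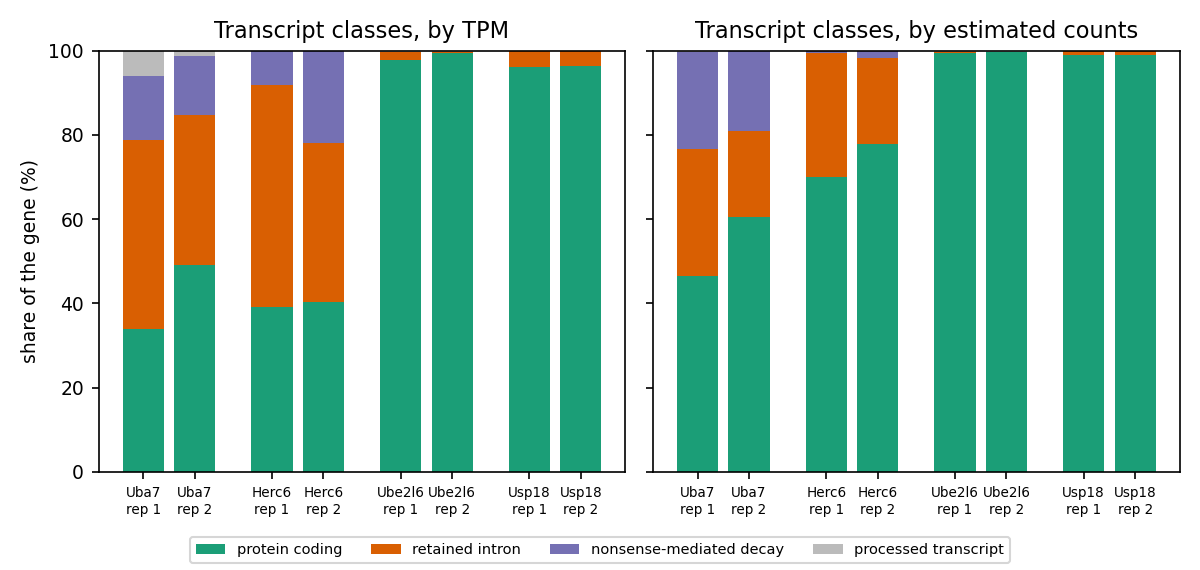
Share (%) of each gene in the annotated transcript classes in each library (rep 1 and rep 2), by TPM (left) and by estimated counts (right); bars are stacked to 100%. Ube2l6 and Usp18 are almost wholly coding in both panels, Uba7 is 33.9% and 49.1% coding by TPM and 46.6% and 60.6% by counts, and Herc6 moves from 39.1% and 40.3% to 70.0% and 77.9%.

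Every member was higher in replicate 2, except Uba7 in the TPM of the second quantification. Ratios between the libraries were taken on CPM normalised by TMM, a scaling that sets the bulk of genes equal, over the 10443 genes whose counts averaged 50 or more. Of these genes 53.5% were higher in replicate 2 by any amount, 3.99% were 2-fold or more apart and 1.85% were 2-fold or more higher in replicate 2. The members were higher in 5 of 5 cases, with a median log2 ratio of 0.45 beside 0.03 for all genes, and 0 of 5 reached 2-fold. With 1 library on each side there is no replicate check and no test. Unlike TMM, TPM moved the centre of all genes, to -0.09 in the first and -0.19 in the second quantification (log2 of TPM + 1), so ratios in TPM are read relative to those values. Counts of genes higher on TPM, here and below, are taken against no change and not against those centres. The share of all genes higher on TPM was not computed.

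Isg15 was 1.54-fold higher in replicate 2 (95% exact counting interval 1.501 to 1.58), at 224 and 345 CPM, and Herc6 1.49-fold (1.43 to 1.55). Ube2l6 followed at 1.37-fold (1.31 to 1.43), Uba7 at 1.32-fold (1.25 to 1.39) and Usp18 at 1.31-fold (1.25 to 1.37). The intervals cover counting error only, as no molecular identifiers are described that would tell PCR copies apart. The 5 genes lay within the upper part of the distribution but not outside it: 6.32% of tested genes had a ratio as high as Isg15, 7.84% as Herc6, 12.2% as Ube2l6, 14.9% as Uba7 and 15.5% as Usp18. The spread between the libraries, as the biological coefficient of variation common to 12178 genes, was 21.5%.

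The same direction was seen on the authors' own scale. The bounds the authors deposited for posterior TPM did not overlap for 4 of 5 members, all higher in replicate 2, and this held for 15.4% of the 10443 genes, or for 40.3% counting either direction. For Isg15 the bounds ran from 693 to 725 TPM in replicate 1 and from 995 to 1027 TPM in replicate 2, for Herc6 from 52.0 to 63.3 and from 78.4 to 91.1 TPM. The member that overlapped was Uba7, with bounds from 37.5 to 47.4 TPM and from 41.1 to 48.2 TPM.

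For Uba7 the size of the ratio, and in 1 case its direction, depended on what was counted. Its gene TPM was 1.08-fold higher in replicate 2 in the first quantification and 0.924-fold, that is lower, in the second. Its coding transcript was higher in both, at 13.7 and 21.5 TPM in the first (1.56-fold) and at 11.5 and 17.1 TPM in the second (1.49-fold). On normalised counts the coding transcript was 1.71-fold higher and the other 14 transcripts together 0.972-fold, from 1033 and 1352 counts. Herc6 showed the same split, with 1.66-fold for Herc6-201 and 1.09-fold for the other 5 transcripts (1004 and 1476 counts). In both genes the estimated difference between libraries was larger in the coding transcript than in the rest, although the division of reads between isoforms that share exons is itself an estimate.

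Other interferon-stimulated genes lay on the same side. All 30 on a list of them that leaves out the members were higher in replicate 2 on TMM-normalised counts, 29 on TPM and 25 on the TPM of the second quantification, with a median log2 ratio of 0.47 on normalised counts, 0.33 on TPM + 1 and 0.16 on that of the second quantification. On normalised counts 2 passed 2-fold: Gbp2, an interferon-induced GTPase (190.0 and 358 TPM, 2.06-fold), and the exonuclease gene Isg20 (19.2 and 40.1 TPM, 2.33-fold). Their most abundant members were the chemokine gene Cxcl10 (3538 and 4972 TPM), the antiviral gene Rsad2 (1686 and 2735 TPM) and Ifit1. The members of the ISG15 system lay within the range of this list.

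Other genes of the same classes had lower median ratios than the member of that role on normalised counts. How many were higher in replicate 2 depended on the scale, but so did the centre of all genes. That centre was 0.03 on normalised counts, -0.09 on TPM + 1 and -0.19 on that of the second quantification. The counts that follow leave the members out. Of 9 other E1 genes 2 were higher on normalised counts, 1 on TPM and 1 on the TPM of the second quantification, with a median log2 ratio of -0.13 beside 0.40 for Uba7. Uba3, of the NEDD8 E1, was the furthest apart of them at 29.9 and 20.5 TPM. Of 10 other E2 genes 6 were higher on normalised counts, 3 on TPM and 1 on the TPM of the second quantification. Their median of 0.03, beside 0.45 for Ube2l6, became -0.14 on TPM + 1. Of 12 other modifiers with enough counts 11 were higher on normalised counts, 9 on TPM and 2 on the TPM of the second quantification. Their median of 0.20, beside 0.63 for Isg15, became 0.12 on TPM + 1 and -0.03 on that of the second quantification.

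The 4 other HERC genes were all higher on normalised counts, 3 on TPM, with Herc2 the exception, and 1 on the TPM of the second quantification, Herc1. Their median of 0.32 became 0.07 on TPM + 1 and -0.22 on that of the second quantification. Herc1 (1.56-fold on normalised counts) exceeded Herc6. On normalised counts Trim25 was 1.37-fold higher and Arih1 0.982-fold. Of the 4 other proteases with enough counts Usp21 was higher on normalised counts, at 1.17-fold, and on TPM, and none was on the TPM of the second quantification; Usp5 was 0.825-fold on normalised counts, beside 1.31-fold for Usp18.

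Of the 10 interferon pathway genes 7 were higher on normalised counts, 5 on TPM and 4 on the TPM of the second quantification. Their median log2 ratio of 0.12 became 0.0062 on TPM + 1 and -0.12 on that of the second quantification. On normalised counts Irf7 stood at 1.49-fold, near Herc6, and Ifnb1 was lower at 0.751-fold. Of the 16 target genes 14 were higher on normalised counts, 12 on TPM and 8 on the TPM of the second quantification. Their median of 0.20 became 0.08 on TPM + 1 and -0.03 on that of the second quantification, with Ddx58, which encodes an RNA sensor, the furthest apart (57.4 and 93.9 TPM).

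**Figure D4:**
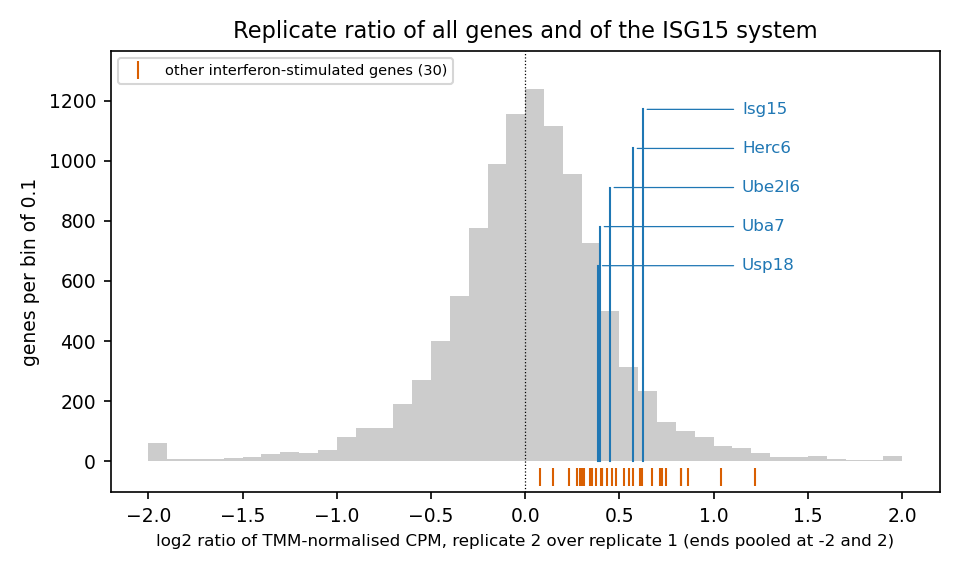
Log2 ratio of replicate 2 over replicate 1, TMM-normalised CPM, for 10443 genes (grey histogram, genes per bin of 0.1, with values beyond -2 and 2 pooled in the end bins), the ISG15 genes (blue lines) and 30 other interferon-stimulated genes (orange ticks). The 5 members lie between 0.39 and 0.63, right of the centre at 0.03, and within the span of the orange ticks.

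Other properties differed between the libraries as well, and their part in these ratios was not tested. Macrophage markers were all 8 at 1 TPM or more, summing to 20044 and 26035 TPM. Most of that difference was Lyz2, the lysozyme gene (13518 and 19283 TPM): the other 7 summed to 6527 and 6752 TPM, with Cd68 lower in replicate 2 (3236 and 2939 TPM) and Cd14 higher (1729 and 2125 TPM). Granulocyte markers were lower in replicate 2, 8 of 8 of them in TPM, with a sum of 562 and 102 TPM, the granule genes Ngp at 67.5 and 3.21 TPM and Mpo at 75 and 7 counts. T and NK cell markers summed to 1.02 and 0.0800 TPM, with Cd3d and Cd3e at 0 counts in replicate 2, and dendritic markers to 6.60 and 1.95 TPM, with none at 1 TPM in both. Mitochondrial transcripts took 7.12% and 5.64% of TPM and ribosomal RNA genes 6.82% and 10.5%.

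Reads of overlapping genes could enter these values, since the sources used here do not say whether counting used strand. Gm45193, a processed transcript on the strand of Herc6, had 33.4 and 29.4 counts and contains 23.8% of the 50-base stretches of Herc6-201, so some Herc6 reads were divisible between them. Gm20661 overlaps Uba7 on the same strand, with 1.16 and 4.08 counts. Gm44148, a lincRNA opposite Usp18, had 1 and 0 counts, and Gm19244, opposite Herc6, had 0. For Ube2l6, 11.3% of 50-base stretches occur in transcripts of 9 other genes. The counts given to the 4 named overlapping genes were small beside those of the members.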

How the data were processed

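RNA-seq of 2 libraries of 1 group was used, with groups and replicate numbers from the labels. Per the file headers, the authors' gene and first transcript tables hold expected counts, TPM, each transcript's percent of its gene's TPM, and, in the gene table, posterior mean TPM with lower and upper credibility bounds, under RSEM's column names. The second transcript table deposited by the authors holds estimated counts and TPM under kallisto's column names and was summed by gene. The build was mm10 per the labels, with GENCODE M21 identifiers. Program versions and use of strand are not given in the sources used here.

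The members and all 16 gene lists were chosen with earlier results of these data known. Named genes are the members, the 3 most abundant genes and the one with the largest absolute ratio of each list, all genes of lists of up to 6 genes, copies and overlapping genes, and the nearest gene in level. Ubb, Ifnb1, Gbp2, Sae1 and Mpo fall outside this rule and were chosen after their values were seen, and some genes that the rule names are not reported here. Expected counts were rounded and scaled with TMM (edgeR 4.0.16, R 4.3.3); genes needed a mean count of 50. No test between conditions was possible. Intervals of ratios are exact binomial at 95%. The spread is edgeR's common dispersion with an intercept alone, over genes that had at least 10 counts in each library. Normalisation and spread were checked on simulated data, but the reported ratios were taken in a separate step that was not. Coordinates and transcript types came from GENCODE M21, promoters from RefSeq (4 of 5 members matched), and the copy of Isg15 from BLAST+ 2.17.0. Alternatives were DESeq2 1.42.0 size factors, library size alone, TPM with a pseudocount of 1 or 0.1, other count minimums, the second quantification, posterior mean TPM and each replicate alone. Python 3.11.15, pandas 2.3.3, numpy 2.4.6, Biopython 1.88 and matplotlib 3.10.9 were used.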

Additional observations from a re-analysis of the deposited data

How the results depend on the processing

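No paired analysis was possible because the labels give 1 group. The order of the members was the same in each quantification. Of 135 alternatives 86 counted as unchanged. For this, levels and coding shares had to stay within 1 SD and members' ratios within their counting interval. Medians of log2 ratios had to stay within 0.1 and counts within 1.5 times. The levels and coding shares with each replicate alone were bound to be among these 86, since each of 2 values lies within 1 SD of their mean. Those levels and shares therefore say nothing on robustness, nor does the leading-transcript ratio of Isg15, which has 1 transcript. DESeq2 size factors moved every log2 ratio by the same small amount (Isg15 from 0.625 to 0.636). Their results for ratios and medians therefore amount to 1 comparison of scaling. Mean levels moved by more than 1 SD in the second quantification for Uba7 (36.0 TPM), Ube2l6 (111 TPM) and Usp18 (89.7 TPM), and without mitochondrial genes for Uba7 (45.0 TPM). Isg15 was also lower in the second quantification, at 681 beside 893 TPM, which its SD of 216 TPM just covers. Herc6 was lower there too, at 63.5 beside 73.1 TPM, with an SD of 19.6 TPM. With each replicate alone the levels were 739.7 to 1046 TPM for Isg15, 40.5 to 43.8 for Uba7, 118 to 147 for Ube2l6, 59.2 to 87.0 for Herc6 and 94.3 to 114 for Usp18. The members' log2 ratios were above 0 in 34 of 35 alternatives, with Uba7 at -0.11 in the TPM of the second quantification. Their median of 0.45 became 0.28 with library size alone, 0.31 on TPM + 1, 0.32 on TPM + 0.1 and, in alternatives chosen after seeing the data, 0.21 on TPM + 1 of the second quantification and 0.63 with leading transcripts. The median of the other interferon-stimulated genes became 0.33 on TPM + 1, and that of all 11 E2 genes, Ube2l6 included, went from 0.05 to -0.11. Medians of the HERC, modifier, pathway, target and protease lists also moved on TPM + 1. Genes 2-fold apart numbered 417 (193 higher, 224 lower), 1040 with a mean count of 10 (431 and 609), 189 with 200 (116 and 73), and, also chosen after seeing the data, 230 on TPM + 1 (66 and 164) and 222 on that of the second quantification (30 and 192). The coding share of Uba7 was 33.9% to 49.1% and that of Herc6 39.1% to 40.3% with each replicate alone; by counts, an alternative likewise added later, they were 53.6% and 74.0%, and 73.3% for Herc6 in the second quantification. The motif was in 1 member promoter, and its shorter form, added later, in 2. The causes were not tested. With 2 libraries, precision is limited by their number and not by the members' counts.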
